A study of Mus musculus with 6 samples.

Results

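NF-kB is the family of transcription factors through which TNF signals to the nucleus, and its subunit genes and inhibitor genes were measured here in the lungs of mice that carry a human TNF transgene. The 10 genes, taken by symbol, were the 5 subunits Rela, Nfkb1, Rel, Nfkb2 and Relb, the 3 inhibitors of the IkB group Nfkbia, Nfkbib and Nfkbie, the ubiquitin-editing enzyme gene Tnfaip3 and the atypical IkB gene Bcl3. The table of counts held all 10 among its 49568 gene symbols, and all 10 were among the 19199 genes that passed the filter on low counts. Poly(A) RNA of whole lungs was sequenced from 3 TNF-Tg and 3 WT mice, females at 4 months of age on a C57BL/6 background, as a single library per mouse. TNF-Tg mice carry the human TNF gene as a transgene, and the WT mice are littermates without it. The table has no row for the human gene, so the transgene itself could not be checked, and the model is a single transgenic line.

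In cells at rest, subunits of NF-kB are held in the cytoplasm by IkB proteins. In the canonical pathway, TNF activates the IkB kinase complex, IkB is phosphorylated and degraded, and dimers such as RelA with the Nfkb1 product enter the nucleus. In the alternative pathway, the kinase encoded by Map3k14 drives the processing of the Nfkb2 product and frees RelB. Several members are themselves target genes of NF-kB, among them Nfkbia, Nfkbie, Tnfaip3, Nfkb2, Relb and Bcl3, and the IkB proteins and the Tnfaip3 product then restrain the signal.

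Promoter stretches are shown for the members that hold the classical NF-kB motif near their start site, because that motif can be read from the bases. The consensus NF-kB decamer, a motif of 10 bases known by that name, was searched on both strands from 250 bases before to 50 bases after the start site in RefSeq sequences of GRCm38.p6. Of the 10 members, 8 had an entry, and Nfkb1 and Relb had none. The decamer was present in 5 of these 8 windows (62.5%), those of Nfkb2, Rel, Nfkbia, Nfkbie and Bcl3, and in 2779 of all 32851 windows of this length (8.46%). It was not in the windows of Rela, Nfkbib and Tnfaip3, of which Tnfaip3 had the largest rise of all members, Nfkbib was called higher and Rela was not called. A match is a run of letters and not a measured binding site. The RefSeq start sites of Nfkb2, Nfkbib and Tnfaip3 lay 1610, 868 and 3694 bases from the start of the gene in GENCODE M21, and those of the other 5 lay at most 58 bases from it. The stretches around the 5 matches are given on the strand of the gene, with the matching bases in capitals. They lie at chr19:46305680-46305739 (plus strand, Nfkb2), chr11:23771026-23771086 (minus strand, Rel), chr12:55492642-55492701 (minus strand, Nfkbia), chr17:45555569-45555628 (plus strand, Nfkbie) and chr7:19822719-19822778 (minus strand, Bcl3).
Nfkb2: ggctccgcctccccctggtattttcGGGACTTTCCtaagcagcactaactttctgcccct
Rel: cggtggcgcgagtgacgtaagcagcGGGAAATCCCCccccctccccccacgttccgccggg
Nfkbia: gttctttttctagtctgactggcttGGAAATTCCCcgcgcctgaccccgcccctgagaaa
Nfkbie: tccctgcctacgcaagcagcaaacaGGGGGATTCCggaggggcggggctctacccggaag
Bcl3: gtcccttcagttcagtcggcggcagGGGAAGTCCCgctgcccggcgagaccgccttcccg

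Counted from the start site, the match ran from -225 to -216 in Nfkb2, from -92 to -82 in Rel, from -29 to -20 in Nfkbia, from -106 to -97 in Nfkbie and from 3 to 12 in Bcl3. In Rel 3 overlapping matches on the 2 strands formed a single run of 11 bases, and in Bcl3 the same 10 bases matched on both strands.

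The 6 libraries held between 25396923 and 32529408 counts. Replicates of a genotype differed by more than sampling noise (between 37.9 and 98.0 for chi-square divided by its degrees of freedom). A pair of libraries stood apart. TNF-Tg replicate 1 had 5.22% of its counts on Gm42418, against at most 0.274% elsewhere. WT replicate 1 had 56570 counts of Krt4 and 45433 of Krt13, keratins of squamous epithelium, against at most 8 of either gene in any other lung. The lung label was borne out by Sftpc, the surfactant gene of alveolar type 2 cells, with 286171 to 536883 counts in every library. Counts were normalized with the TMM method of edgeR, and a normalized count is the count a gene would have in a library of the mean scaled size. Changes are log2 fold changes of TNF-Tg over WT by the quasi-likelihood test of edgeR, p-values were adjusted by Benjamini-Hochberg across the genes tested, and a gene is called when its adjusted p is under 0.05.

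Of the 10 members, 9 were higher in TNF-Tg lungs and none was lower. Much of the transcriptome changed, and this count has to be read against 47.4% of all genes tested that were called, 24.0% higher and 23.4% lower. The median log2 fold change was 1.60 over the members and 0.03 over all genes tested. With a rise of at least 1 on the log2 scale asked for in addition, 8 members passed, against 10.3% of all genes tested. Every TNF-Tg lung lay above every WT lung for all 10 members, where groups that do not overlap were found for 58.7% of the genes tested and TNF-Tg lungs all above WT lungs for 30.5%. All 9 calls held in each of the 6 fits that left out 1 lung.

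**Figure D1:**
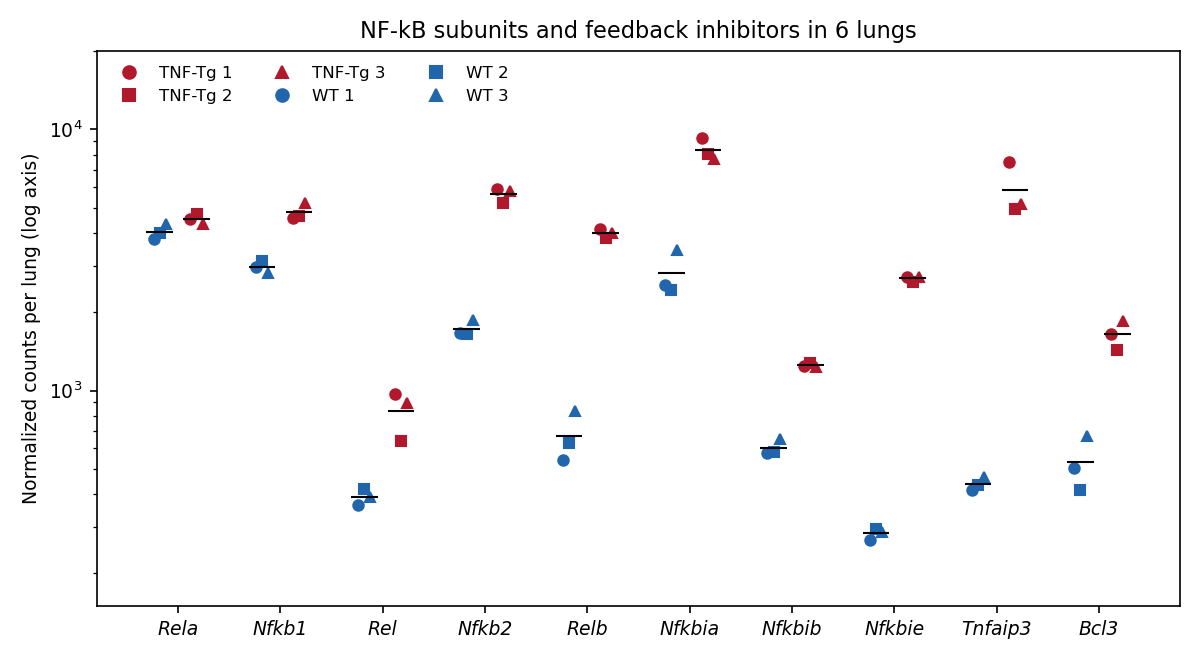
Normalized counts (log axis) of the 10 members in each of the 3 WT (blue) and 3 TNF-Tg (red) lungs, with the group mean as a black bar. The groups lie close together for Rela, whose highest WT lung (4325) almost meets its lowest TNF-Tg lung (4338), and far apart for Tnfaip3, Nfkbie and Relb.

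Among the canonical subunits, Rela, which encodes RelA, the main transactivating subunit, was at nearly the same level in both genotypes. Its normalized counts were 4528, 4748 and 4338 in TNF-Tg lungs and 3808, 3993 and 4325 in WT lungs. The groups touched without overlapping. The log2 fold change was 0.17 (95% interval -0.05 to 0.39) with an adjusted p of 0.185, so a rise of up to 0.39 was not excluded by these lungs. Without WT replicate 1 it was 0.10 (adjusted p = 0.514).

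Nfkb1, the gene of the precursor that gives the usual partner of RelA, had 4570, 4652 and 5233 normalized counts in TNF-Tg lungs and 2973, 3141 and 2814 in WT lungs. It rose by a log2 fold change of 0.70 (SE 0.10, adjusted p = 0.000826), the smallest rise among the called members. Rel encodes c-Rel, a subunit found mainly in lymphoid and myeloid cells. It had 972, 639 and 897 normalized counts in TNF-Tg lungs against 364, 419 and 391 in WT lungs, and it rose by 1.09 (SE 0.17, adjusted p = 0.00113). TNF-Tg replicate 2 was the low lung of its group for Rel, still 1.5 times the highest WT lung.

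Both subunits of the alternative pathway had larger fold changes than the canonical ones. Nfkb2 had 5920, 5214 and 5815 normalized counts in TNF-Tg lungs and 1660, 1646 and 1863 in WT lungs. The lungs of each genotype lay close together, with a coefficient of variation of 6.74% and 7.04%, and the log2 fold change was 1.71 (SE 0.10, adjusted p = 1.34e-05). Relb had 4144, 3834 and 4001 normalized counts in TNF-Tg lungs and 542, 627 and 838 in WT lungs. It rose 5.97-fold, a log2 fold change of 2.58 (SE 0.16, adjusted p = 1.6e-05), and its spread was narrow in TNF-Tg lungs (3.89%) and wide in WT lungs (22.8%), where replicate 3 was the highest.

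The 3 IkB genes rose by very unequal amounts. Nfkbia, the gene of IkBa, the fast feedback inhibitor, had 9240, 8018 and 7714 normalized counts in TNF-Tg lungs and 2542, 2427 and 3455 in WT lungs. WT replicate 3 was the highest of its group, and the log2 fold change was 1.57 (SE 0.16, adjusted p = 0.000137). Nfkbib, the gene of IkBb, had 1239, 1275 and 1227 normalized counts against 578, 583 and 651. The 3 TNF-Tg lungs differed by a coefficient of variation of 2.00%, and the log2 fold change was 1.05 (SE 0.09, adjusted p = 8.14e-05). Nfkbie, the gene of IkBe, had 2731, 2611 and 2724 normalized counts against 268, 296 and 288. It rose 9.47-fold, a log2 fold change of 3.24 (SE 0.09, adjusted p = 2.45e-06), and among all 19199 genes tested it ranked 2 by p-value.

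Tnfaip3, which encodes a ubiquitin-editing enzyme that shuts off the signal between the TNF receptor and the IkB kinase complex, rose most of the 10. Its normalized counts were 7516, 4960 and 5162 in TNF-Tg lungs and 416, 434 and 466 in WT lungs, a 13.4-fold rise with a log2 fold change of 3.74 (SE 0.18, adjusted p = 5.76e-06). TNF-Tg replicate 1 was well above the other TNF-Tg lungs, and no lung overlapped between the groups. Of 9 early response genes looked at after this was seen, 7 (Fos, Fosb, Junb, Egr1, Ier2, Dusp1 and Zfp36) were at least 1.5 times as high in that lung as in either other TNF-Tg lung, with 13622 normalized counts of Dusp1 against 2874 and 2397 in the other TNF-Tg lungs, 4616 of Fos against 794 and 1114, and 12734 of Zfp36 against 3440 and 3784. Jun and Atf3 were not raised in it (2863 against 3095 and 3051, and 572 against 605 and 595). How many of all genes tested were as high in that lung was not counted, so the tally has no background to be read against. The part of these early response levels in the level of Tnfaip3 was not tested. Without that lung the log2 fold change of Tnfaip3 was 3.49 (adjusted p = 2.33e-05) and that of Nfkbia was 1.45 (adjusted p = 0.000748).

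Bcl3, an atypical IkB protein that acts in the nucleus with the products of Nfkb1 and Nfkb2, had 1650, 1429 and 1844 normalized counts in TNF-Tg lungs and 506, 416 and 671 in WT lungs. The groups did not overlap, with coefficients of variation of 12.6% and 24.3%, and it rose by a log2 fold change of 1.63 (SE 0.18, adjusted p = 0.00024). The order of the rises from Tnfaip3, Nfkbie and Relb down to Nfkb1 and Rela is drawn in the plot of fitted changes.

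**Figure D2:**
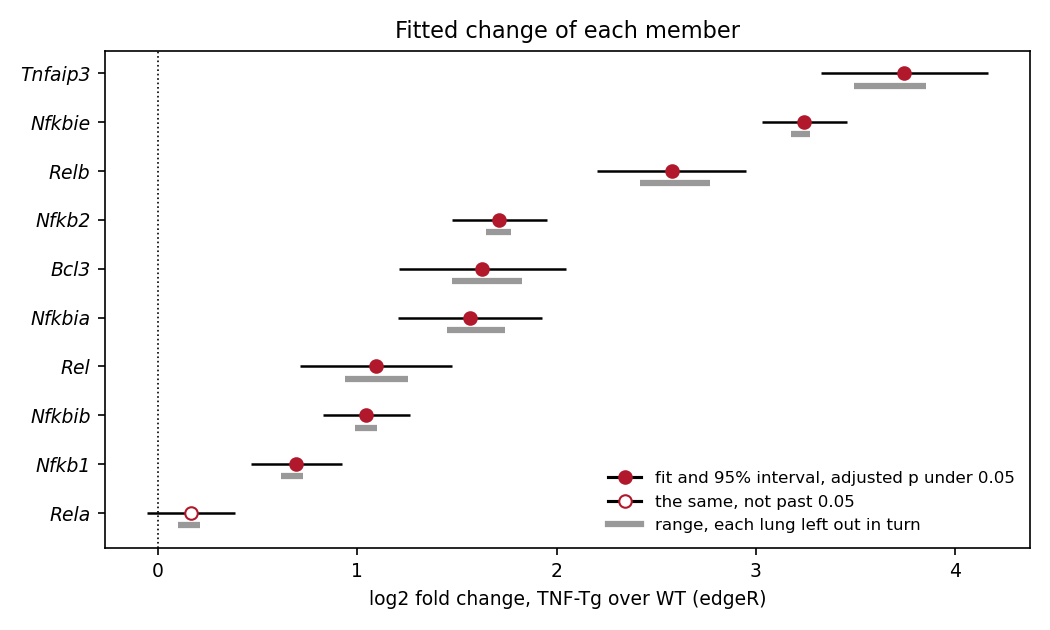
Log2 fold change of each member (TNF-Tg over WT, edgeR) with its 95% interval in black, filled where the adjusted p is under 0.05, and in grey the range when each lung is left out in turn. Tnfaip3 is at 3.74, Nfkbie at 3.24 and Relb at 2.58, and only the interval of Rela (-0.05 to 0.39) crosses 0.

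None of the 10 members had a 100-base window of its transcripts in common with another gene of GENCODE M21. On the opposite strand, exons of Nfkb2 overlap AC114539.1 over 531 bases (11.6% of its exons) and Psd over 299 bases, those of Nfkbib overlap Ccer2 over 314 bases and Sirt2 over 42 bases, and those of Bcl3 overlap Gm16175 over 161 bases. AC114539.1 has no row in the table, so its counts are not known here. Psd, Ccer2 and Gm16175 had at most 57, 2 and 2 counts in any lung. Sirt2 had up to 3275 counts, but the shared bases were 1.94% of the exons of Nfkbib. The kit marks strand, and the strand setting of the counting is not given in the sources used here.

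A ratio to Rela within each lung does not depend on the scaling between lungs, and Rela was the member that moved least. Because the other 9 members all had larger rises, the direction of their ratios follows from the choice of Rela, and the ratios are given as sizes without a test. The log2 ratio of Relb counts to Rela counts was -0.13, -0.31 and -0.12 in TNF-Tg lungs and -2.81, -2.67 and -2.37 in WT lungs, a difference of 2.43 or 5.40-fold. The ratio of Nfkbie to Rela was 8.42-fold higher and that of Tnfaip3 to Rela was 11.7-fold higher. The ratios of Nfkb1 and Nfkbib moved least, by 1.44-fold and 1.84-fold.

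To compare levels between genes, counts were divided by the length of the exons in GENCODE M21 and by the TMM-scaled size of the library, which gives RPKM. The length counts every annotated exon of a gene, merged over its transcripts, with 12061 bases for Nfkb1 and 3072 for Rela. A gene whose main transcript is much shorter than this gets a lower RPKM, so the order below depends on these lengths. In WT lungs the order was Nfkbia (57.7 ± 11.6, SD, n = 3), Rela (43.5 ± 2.82), Nfkb2 (12.4 ± 0.88), Nfkbib (9.21 ± 0.63), Nfkb1 (8.16 ± 0.45), Bcl3 (7.10 ± 1.73), Relb (5.70 ± 1.30), Nfkbie (3.08 ± 0.16), Tnfaip3 (2.01 ± 0.12) and Rel (1.73 ± 0.12). Neighbours in this order did not overlap except Nfkb1 with Bcl3 and Bcl3 with Relb. In TNF-Tg lungs Nfkbia (171 ± 16.6, SD, n = 3), Rela (48.9 ± 2.21) and Nfkb2 (40.8 ± 2.75) kept the first 3 places, and Relb (34.0 ± 1.32), Nfkbie (29.2 ± 0.73) and Tnfaip3 (26.9 ± 6.51) came next. Bcl3 (21.9 ± 2.77), Nfkbib (19.0 ± 0.38), Nfkb1 (13.2 ± 0.99) and Rel (3.70 ± 0.77) followed. Nfkbie, Tnfaip3 and Bcl3 each overlapped the next in this order, and the other neighbours did not.

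The make-up of the subunit transcripts was shifted in every TNF-Tg lung. Summed over the 5 subunits, the RPKM was 144, 137 and 141 in TNF-Tg lungs and 67.4, 70.7 and 76.6 in WT lungs, a ratio of 1.96. Rela made up 34.0%, 37.3% and 33.1% of this sum in TNF-Tg lungs and 60.9%, 60.8% and 60.8% in WT lungs. Relb made up 24.6%, 23.8% and 24.2% against 6.85%, 7.55% and 9.32%, and Nfkb2 made up 29.8%, 27.5% and 29.8% against 17.8%, 16.8% and 17.6%. Relb and Nfkb2 together thus held more of the subunit transcripts in TNF-Tg lungs, and Rela less, with no overlap between the groups. These directions follow from the unequal rises given above, and the shares are given as sizes without a test. The shares of Nfkb1 (8.73%, 9.31% and 10.2% against 12.1%, 12.2% and 10.1%) and Rel (2.63% ± 0.49 against 2.43% ± 0.18, SD, n = 3) overlapped between the genotypes. With raw counts in place of RPKM, the shares of Nfkb1 no longer overlapped, and its difference went from -2.05 to -6.14 percentage points. The difference of Rela went from -26.0 to -18.3 and that of Relb from 16.3 to 13.3 points. The level of each share, that of Rela in WT lungs included, thus depends on the division by length. These are shares of RNA, and the proteins and their dimers were not measured.

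Summed per length, the IkB transcripts had a larger ratio between genotypes than the subunit transcripts, although Nfkbia and Nfkbib each had a smaller fold change than Nfkb2 and Relb. The summed RPKM of the 3 IkB genes was 239, 213 and 207 in TNF-Tg lungs and 64.0, 62.0 and 84.1 in WT lungs, a ratio of 3.13. Per unit of subunit RPKM this was 1.66, 1.55 and 1.47 in TNF-Tg lungs and 0.949, 0.877 and 1.10 in WT lungs, a ratio of 1.60 between the means (1.64 with raw counts), and the groups did not overlap. This follows from the sums, which are weighted towards Nfkbia in both genotypes and towards Rela in WT lungs, and is given without a test. Nfkbia held most of the sum in both genotypes (77.9% ± 1.54 against 82.2% ± 2.05, SD, n = 3). Nfkbie held 12.4%, 13.4% and 14.3% in TNF-Tg lungs against 4.55%, 5.19% and 3.72% in WT lungs, and overtook Nfkbib, which held 8.71% ± 0.68 against 13.3% ± 1.33 (SD, n = 3). The difference in the share of Nfkbie was 8.88 percentage points, and 14.2 with raw counts, and that of Nfkbia was -4.27, and -7.88 with raw counts.

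**Figure D3:**
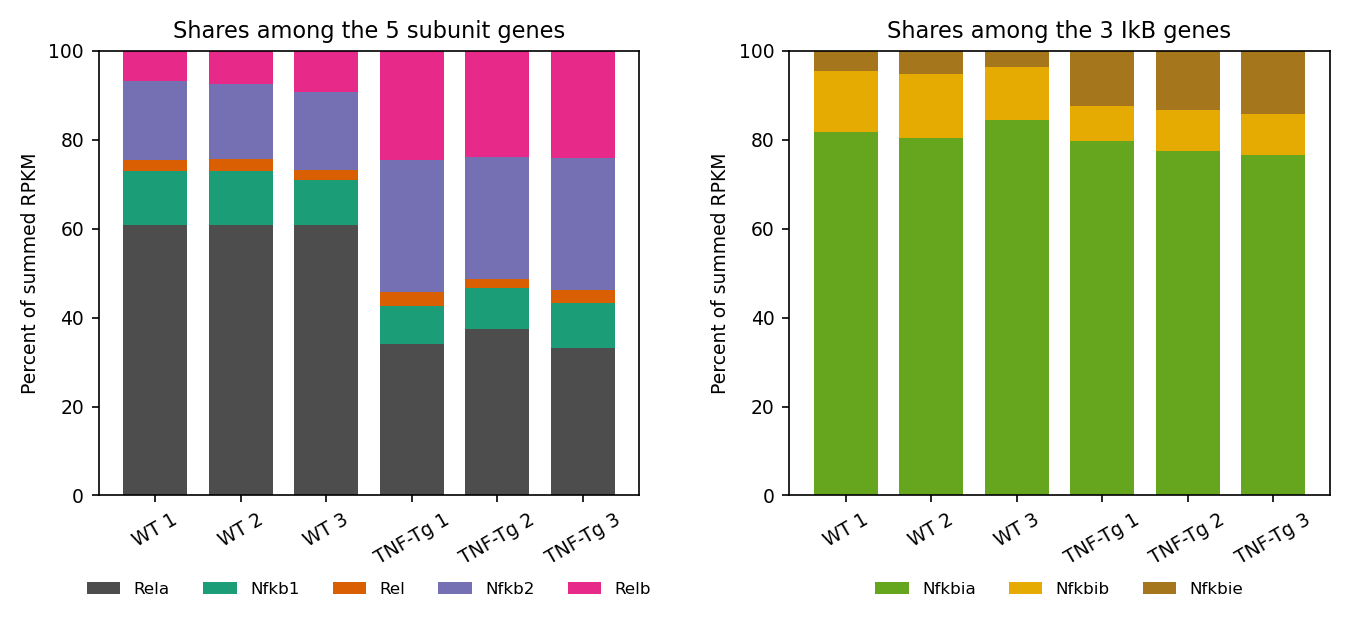
Share of the summed RPKM held by each of the 5 subunit genes (left) and each of the 3 IkB genes (right), as stacked bars that add up to 100% in each of the 6 lungs. Relb goes from 6.85% to 9.32% in WT lungs to 23.8% to 24.6% in TNF-Tg lungs, Rela from about 61% to 33.1% to 37.3%, and Nfkbie from 3.72% to 5.19% to 12.4% to 14.3%.

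These are whole lungs, so more cells of a type and more RNA per cell cannot be told apart, and the RNA of cell type markers moved with the genotype. All 6 leukocyte markers (Ptprc, Coro1a, Cd53, Laptm5, Ptpn6 and Itgb2) were called higher, and their summed normalized counts were 74020 to 84854 in TNF-Tg lungs and 26057 to 32332 in WT lungs, a ratio of 2.75. All 6 macrophage and monocyte markers were higher too, with a median log2 fold change of 2.65. Cd68 (10.1-fold), Adgre1 (9.17-fold), Csf1r (6.30-fold) and Itgam (6.26-fold) rose more than Relb, and Mrc1 (2.90-fold) and Lyz2 (2.67-fold) less. Their summed ratio of 3.07 mostly reflects Lyz2, which had 207970 of the 266160 summed normalized counts in TNF-Tg lungs. Of the 6 markers each of B cells and of T cells 4 were higher, with summed ratios of 1.75 and 1.48. All 6 endothelial markers, 5 of 6 lung epithelial markers and 4 of 6 fibroblast markers were lower, with median log2 fold changes of -1.31, -1.16 and -0.63. Sftpc, the epithelial marker that was not called, was at 0.696 of its WT mean. No marker of any of these lists was at 0 over all lungs. The part of these shifts in the changes of the members was not tested.

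Set against the summed leukocyte markers of the same lung, the members were sorted by their own change against that of the sum. This sum was 2.75-fold higher in TNF-Tg lungs, so a gene with no change is lower against it. The median log2 fold change of all genes tested was 0.03. The direction of each ratio thus follows from the rises given above and the choice of the sum. Laptm5 gave most of this sum (46597 of 81236 normalized counts in TNF-Tg lungs and 18543 of 29549 in WT lungs), and its log2 fold change of 1.33 was below those of Cd53 (2.07) and Itgb2 (2.10), so the sorting below holds for this sum. Tnfaip3, Nfkbie and Relb were higher per leukocyte marker count in every TNF-Tg lung, by 4.78-fold, 3.44-fold and 2.20-fold. Nfkb2, Nfkbia and Bcl3 moved about as much as the sum, with ratios of 1.19, 1.09 and 1.14 and genotypes that overlapped, and Rel (0.764) overlapped as well. Rela, Nfkb1 and Nfkbib were lower per leukocyte marker count in every TNF-Tg lung, by 2.45-fold, 1.70-fold and 1.33-fold. Each of the 6 ratios without overlap had an exact two-sided permutation p of 0.1, the smallest possible, or 0.167 after adjustment over the 10 ratios. Because the sum rises, these p-values cannot tell a fall of a member from a rise of the sum. The ratios are therefore read as sizes. The choice of the marker mattered. With Adgre1, the F4/80 gene of macrophages, alone as the denominator, the log2 difference of Relb turned from 1.14 to -0.60 and that of Nfkbie shrank from 1.78 to 0.04, while Tnfaip3 stayed higher (0.52). The same denominator put Nfkb2 (-1.49), Nfkbia (-1.62) and Bcl3 (-1.55) lower in every TNF-Tg lung. It also moved Rela from -1.29 to -3.03, Nfkb1 from -0.77 to -2.50, Nfkbib from -0.41 to -2.15 and Rel from -0.388 to -2.125.

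**Figure D4:**
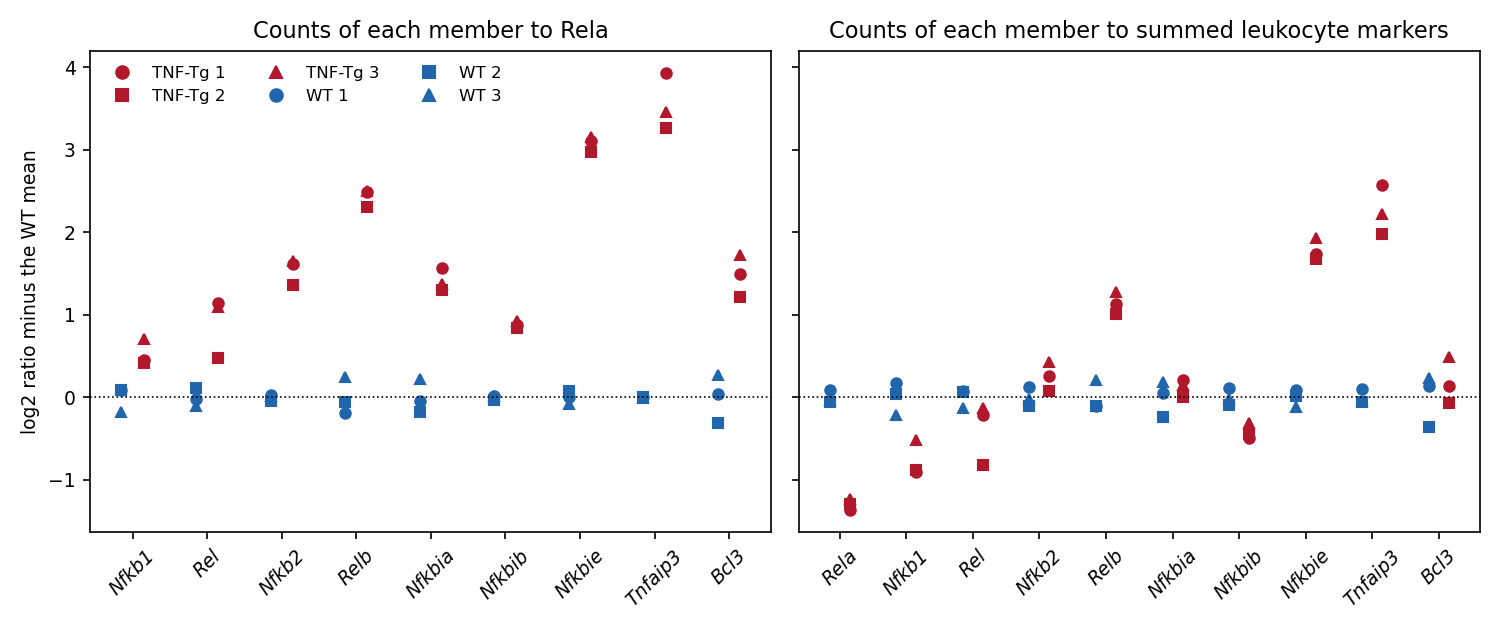
Log2 ratio of each member's counts to Rela counts (left) and to the summed counts of 6 leukocyte markers (right) in each lung, minus the mean of the 3 WT lungs, with TNF-Tg in red and WT in blue. To Rela all 9 other members lie above the WT lungs, and to the leukocyte markers only Relb, Nfkbie and Tnfaip3 lie wholly above them while Rela, Nfkb1 and Nfkbib lie wholly below.

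Lists of other pathway genes were read against the 47.4% of all genes tested that were called. Of 18 genes of the IkB kinase complex and the steps from the TNF receptor to it, 6 were higher and 1 was lower (38.9% called), with a median log2 fold change of 0.22. This share was below that of all genes in the main fit. With each lung left out the list had 5 to 9 calls. Without WT replicate 3 it was 9 of 18, no longer below the share of all genes (9164 of 19653). Birc3 (log2 fold change 2.11, SE 0.10) and Birc2 (1.07, SE 0.09), ubiquitin ligases of the receptor complex, and the adaptor gene Traf2 (0.57, SE 0.14) rose most. The lists share genes, as Birc3 is also on that of the canonical targets and Chuk on that of the alternative pathway. Rnf31, the catalytic subunit of the linear ubiquitin ligase, fell (-0.64, SE 0.08). The receptor Tnfrsf1a (0.16) and the kinases Chuk (-0.10) and Ikbkb (0.25) were not called (edgeR adjusted p of 0.342, 0.446 and 0.0682). Ikbkg, the regulatory subunit of the same kinase complex, was called higher (0.39, SE 0.09), as were the adaptor genes Tradd (0.51, SE 0.13) and Ripk1 (0.38, SE 0.10).

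Of 9 genes of the alternative pathway, 6 were higher and 2 were lower (88.9% called), with a median of 0.89. Tnfrsf1b, the second TNF receptor (2.11, SE 0.09), Tnfrsf11a, the receptor RANK (1.65, SE 0.17), and Tnfrsf13c, the BAFF receptor of B cells (1.12, SE 0.22), rose most. Map3k14, the kinase that starts the pathway, rose by 1.00 (SE 0.12, edgeR adjusted p = 0.000369). The falls of Ltbr, the lymphotoxin beta receptor (-0.25, SE 0.09), and Tnfrsf12a (-0.78, SE 0.28) were called in only 1 and 2 of the 6 fits that left out a lung, and without TNF-Tg replicate 1 or WT replicate 1 the list had 5 calls, all higher.

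Of 15 other genes listed as negative regulators of NF-kB, 10 were higher and 2 were lower (80.0% called), with a median of 0.80. The 10 include the atypical IkB gene Nfkbiz (1.10, SE 0.22), so the count is not one of inhibitors alone. Tnip3 (4.26, SE 0.22) and Tnip1 (1.85, SE 0.09), partners of the Tnfaip3 product, and Nfkbid, an atypical IkB gene (2.15, SE 0.23), rose most. Tnip3 had 402, 360 and 435 counts in TNF-Tg lungs against 25, 19 and 29 in WT lungs. Otud7b, a deubiquitinase (-1.55, SE 0.15), and Pdlim2, an adaptor that directs nuclear RelA to degradation (-1.03, SE 0.10), fell.

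Known target genes moved unequally. Of 28 tested canonical targets, 17 were higher and 2 were lower (67.9% called), with a median of 1.61. Saa3 (7.89, SE 0.61), Cxcl2 (6.92, SE 1.19) and Ccl2 (6.32, SE 0.49) rose most. Saa3 had 52, 47 and 213 counts in WT lungs and rose by 8.89 without WT replicate 3. Cxcl2 rested in part on TNF-Tg replicate 1, with 1684 counts there against 200 and 244, and rose by 4.88 without it (edgeR adjusted p = 0.000116). Mmp9 rose by 4.99 (SE 0.18) in the fit of all lungs, so the place of Cxcl2 among the 3 may rest on that lung. Bcl2l1 (-0.92, SE 0.23) and Gadd45b (-0.40, SE 0.12) fell, the latter called in 3 of the 6 fits that left out a lung. The adhesion molecule gene Icam1, often used as a marker of NF-kB activity, was not called (-0.16, SE 0.10, edgeR adjusted p = 0.235). Il6 was below the filter, with 24, 5 and 12 counts in TNF-Tg lungs and 2, 3 and 5 in WT lungs.

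Of 9 targets of the alternative pathway, 6 were higher and none was lower (66.7% called), with a median of 2.72. The lymphoid chemokine genes Cxcl13 (6.69, SE 0.37) and Ccl19 (5.43, SE 0.23) and Enpp2, the gene of autotaxin (2.72, SE 0.10), rose most among those with a mean log2 CPM of 1 or more. Below that level, Tnfsf11, the gene of the RANK ligand, rose by 2.93 (SE 0.47) on 23, 29 and 15 counts in TNF-Tg lungs against 3, 3 and 4 in WT lungs. Ccl19 had 3486, 5454 and 3669 counts in TNF-Tg lungs against 94, 104 and 144 in WT lungs. Madcam1, the addressin gene, had 115, 324 and 231 counts in TNF-Tg lungs and 0 in every WT lung. Against a floor of 3 counts per lung it was at least 83.8-fold higher. Ccl21a, which has near-identical copies among which reads may be split, was not called (-0.15, SE 0.12), nor was Tnfsf13b, the gene of BAFF (0.19, SE 0.10).

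**Figure D5:**
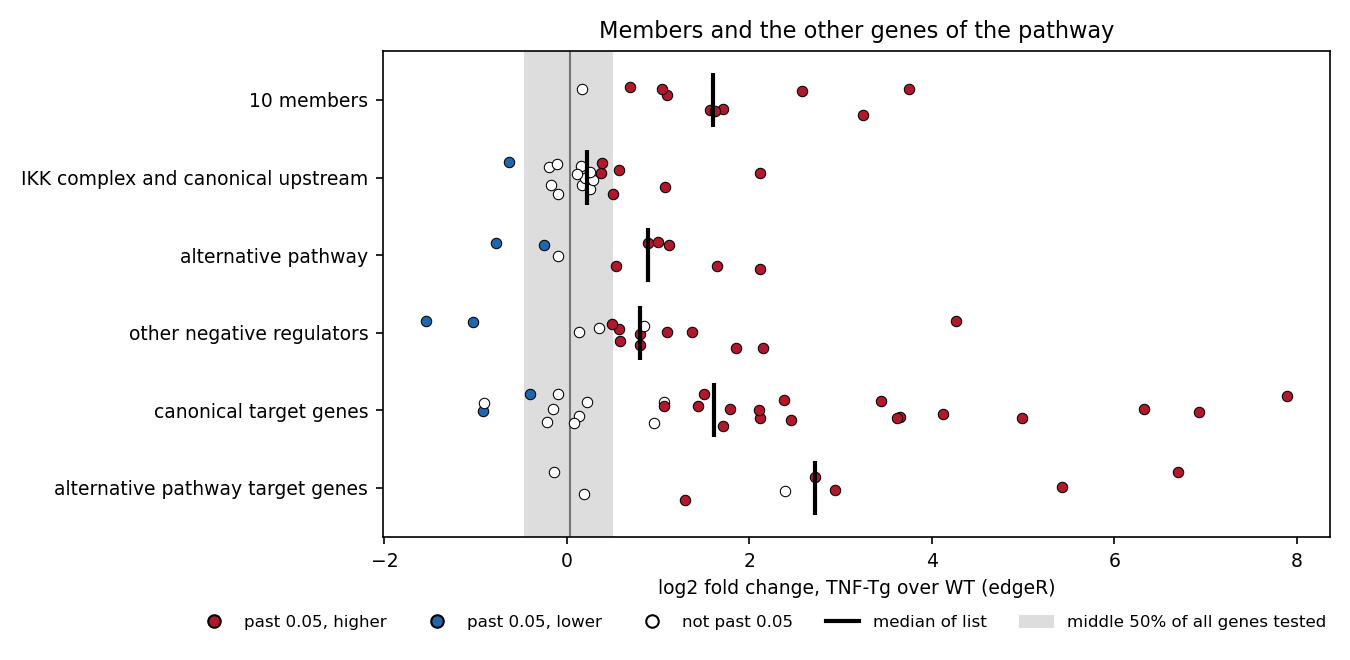
Log2 fold changes (TNF-Tg over WT, edgeR) of the 10 members and of 5 lists of other pathway genes, one point per tested gene, red where higher and blue where lower at an adjusted p under 0.05, with the list median as a black bar and the middle 50% of all genes tested (-0.46 to 0.49) in grey. Madcam1, at 0 in all WT lungs, is not drawn. The medians are 1.60 for the members and 0.22 for the IkB kinase complex and its upstream genes.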

How the data were processed

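Per the labels, total RNA of lung was made into stranded poly(A) libraries and sequenced as single reads. The authors' processing notes and methods name Trimmomatic (0.36 in the notes, another version in the methods), STAR 2.5.2b, GRCm38.p5 (mm10) and featureCounts, and the deposited table holds raw counts of reads per gene symbol without normalization. The gene annotation and strand setting are not given in the sources used here. All 6 columns were used.

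Counts were tested with edgeR 4.0.16 (R 4.3.3) after filterByExpr and TMM, by the quasi-likelihood F-test on genotype alone, called at a Benjamini-Hochberg adjusted p under 0.05, while the authors used DESeq2. The SE is the size of the log2 fold change divided by the square root of F. The 6 mice are separate animals. Log2 CPM used a prior count of 2. Ratios used counts plus 0.5 and exact two-sided permutation tests. RPKM used exon lengths of GENCODE M21, merged over all transcripts of a gene, which may differ from the authors' annotation. The total counts of 25396923 to 32529408 set the floor of 3 counts at 0.0922 to 0.118 CPM, covering counting error only.

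The members and lists were chosen with earlier results of these data known. Named genes were all members, the 3 largest rises and falls past the cutoff per pathway list among genes at or over 1 in mean log2 CPM, markers, and the 3 genes most correlated with Rela, Relb and Nfkbia. The early response genes, Tnfrsf1a, Chuk, Ikbkb, Ikbkg, Tradd, Ripk1, Map3k14, Nfkbiz, Mmp9, Icam1, Il6, Madcam1, Tnfsf11, Ccl21a, Tnfsf13b and the antisense neighbours were named after values were seen. Alternatives were DESeq2 1.42.0, limma-voom (limma 3.58.1), other scalings and filters, robust dispersion, a replicate block, each lung left out, Gm42418 removed and a minimum change. The scripts were tested on simulated counts.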

Additional observations from a re-analysis of the deposited data

How the results depend on the processing

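Under the 15 alternative fits, each of the 10 members kept its direction and its side of the cutoff, Rela not called in any (adjusted p up to 0.514) and the other 9 called in all. The count of called members was 9 in every setting but the minimum log2 fold change of 1, where Nfkb1 was lost and 8 remained. That minimum left 4320 of all genes, 2 of the upstream list, 4 of the alternative pathway list and 7 of the other negative regulators, because it asks for more by construction. With each lung left out, the alternative pathway list had 5 to 7 calls, and the genes called in all ranged from 7347 to 9164. Under a replicate block, 7686 genes and the same count of 9 members were called. The numbers do not pair animals, and same-numbered lungs did not deviate together (mean correlation -0.13 over 3 pairs, 0.07 over the others). The paired differences changed no direction of a ratio to leukocyte markers, with exact permutation p-values of 0.25, the smallest 3 pairs allow, or 0.5. Denominators added after seeing the data turned some ratios to leukocyte markers. With Adgre1 alone, the log2 difference became -1.49 for Nfkb2, -0.60 for Relb, -1.62 for Nfkbia and -1.55 for Bcl3, and with the macrophage and monocyte markers together it was -0.035 for Nfkbia. Raw counts in place of RPKM kept the direction of every share but moved the difference of Nfkb1 from -2.05 to -6.14, of Nfkbia from -4.27 to -7.88 and of Nfkbie from 8.88 to 14.2 percentage points. They moved that of Rela from -26.0 to -18.3 and that of Relb from 16.3 to 13.3. The depth was ample for the members, whose lowest count in any lung was 280 (Nfkbie), a counting error of 5.98%.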

Other observations

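By the Pearson correlation of log2 CPM over the 6 lungs, the genes most like Relb were CR974586.5 (0.9997), Sash3 and Ostm1 (both 0.9994), those most like Nfkbia were Mettl21b (0.9989), Slc14a1 (0.9988) and Mmp19 (0.9986), and those most like Rela were Xcr1 (0.9971), Rtfdc1 (0.9970) and Igkv1-131 (0.9959). For Relb and Nfkbia the 6 points fall into the 2 genotypes, so that any gene with a similar shift correlates highly, while for Rela the groups nearly meet. The genes were picked as the highest of 19199, and these values are a description.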
